A study of Mus musculus with 6 samples.

Results

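The genes described here are 54 components of the Wnt pathway, from secreted ligands and their receptors to the Tcf factors and feedback genes at its end. A gene entered through probe sets annotated to its symbol alone and was represented by whichever of them had the highest mean of the 6 arrays, its other probe sets serving as a check. Of the 54 genes, 53 had such a probe set, out of 18193 genes measured; Tcf7 was not analysed here. No filter on low values was applied, so all 53 entered the test. The arrays hold RNA from mouse embryonic fibroblasts (MEF), connective tissue cells grown out of embryos. FHL2-/- cells, from mice lacking the LIM-only cofactor FHL2, were represented by clones E, H and J, and WT (wild type) cells by clones E, F and I. Every clone had become immortal spontaneously in culture, so each is a lineage selected for growth, and each was measured on 1 Affymetrix array. The sources used here give no treatment, embryonic age or strain. The labels call the 3 clones of a genotype biological replicates but do not tie them to separate embryos, so p-values measure the spread between clones.

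Wnt proteins are secreted ligands that receive a lipid from the enzyme Porcn and are carried to the cell surface by Wls. They bind Frizzled receptors together with the co-receptors Lrp5 or Lrp6, and the signal passes through Dishevelled (Dvl) proteins to a complex of Axin, Apc and Gsk3b that otherwise has beta-catenin (Ctnnb1) destroyed. Stabilised beta-catenin works with Tcf and Lef factors in the nucleus, while other Wnt signals run through Ror and Ryk receptors or planar polarity proteins without it. Secreted inhibitors of the Sfrp, Dkk and Wif families hold the ligands or receptors, and R-spondins protect Frizzled receptors from the membrane ubiquitin ligases Znrf3 and Rnf43. FHL2 is known to bind beta-catenin, and in fibroblasts the pathway is known for roles in growth, matrix production and the choice between connective tissue fates.

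Values are log2 intensities, so a difference of 1 is a 2-fold change, and levels of different probe sets cannot be set against each other. Clone values follow in the order E, H and J for knockout and E, F and I for wild type. Fhl2 itself read 6.01, 6.44 and 6.57 in knockout and 9.88, 8.57 and 9.64 in wild type, with no overlap (difference -3.02, SE 0.35, adjusted p = 0.004); the sources used here do not say whether its probe set lies in the deleted part. All 10 fibroblast markers measured lay high in knockout (10 of 10 means at 10.05 or above), 3 of them higher (Pdgfra, Dcn, Lum) and 2 lower (Thy1, Pdgfrb) than in wild type. Their levels summed to between 122 and 123 in knockout clones, against 112 to 120 in wild type clones. The sum does not show a shift of the whole list: Lum and Dcn differed most, by 4.81 and 2.04, and the median difference was 0.20. Cdh1, Ptprc, Pecam1, Myod1 and Sox2, defining markers of epithelium, blood, endothelium, muscle and neural stem cells, lay between 2.34 and 3.65 in every clone, under the 25th percentile of gene means (3.76). Other markers of these lists read higher: Epcam 7.24 to 7.84 in all clones, Krt19 7.0 to 8.26 in wild type and 4.31 to 4.61 in knockout, Csf1r 6.87 to 7.35, Kdr 4.81 to 6.99, Nes 6.48 to 7.61 and Tubb3 3.9 to 8.94. Of the wider lists, where 19.0% of all genes passed, 2 of 10 epithelial markers (Epcam higher, Krt19 lower), 1 of 8 endothelial (Tek, higher), 2 of 7 neural (Tubb3 and Nes, lower), 0 of 8 blood, 0 of 7 muscle and 0 of 6 cartilage and bone markers passed in limma. At an unadjusted p under 0.05, reached by 33.2% of all genes, the last 3 lists held 2, 0 and 1. In RNA from whole cultures, fewer expressing cells and less RNA per cell cannot be told apart.

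Knockout clone H stood apart from the other knockout clones. Its values correlated with those of E and J at 0.964 and 0.968 across genes, against 0.991 between E and J and 0.988 to 0.991 between wild type clones (genes are not independent replicates). Clone H read 9.82 for Xist, the RNA of the inactive X chromosome, against 4.69 to 5.11 in the other clones. It read 2.34 for the Y-linked gene Kdm5d against 6.5 to 7.72 elsewhere, so what is particular to clone H and what goes with its sex chromosomes cannot be told apart. Results are therefore given with and without clone H.

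Knockout clones carried more transcript of several receptors and of agonists of the receptor complex. In limma with Benjamini-Hochberg adjustment over all genes, 13 of the 53 Wnt pathway genes were higher in knockout and 2 were lower at an adjusted p under 0.05, while 38 did not pass. That is 28.3% of the members, where 19.0% of all genes passed. Higher calls made up 24.5% of members against 9.04% of all genes, and lower calls 3.8% against 10%. Only 1 member (Wif1) had both genotype means under the 25th percentile of gene means. In a fit of the 9097 genes at or above the median level, 3142 passed, 1410 of them higher, a larger share than among all genes. The share of all genes is therefore not that of genes at levels like those of the members. Knockout and wild type clones did not overlap in 26 members (49.1%), against 38.9% of all genes. The median difference was 0.31 over the members and 0.04 over all genes, and 35 members lay above 0 (66.0%, against 56.4% of all genes). Without clone H, 17 members were higher (32.1%, against 12.7% of all genes) and 7 lower (13.2%, against 13.4%), and the calls came to 45.3% of members against 26.1% of all genes. Of the 15 calls, 14 held without clone H and 1 (Lrp5) did not, while 10 further members passed. Of the 15, only Wnt2, Fzd2, Rspo1, Dvl1 and Tcf7l2 passed in all 6 fits that each left out 1 clone. Over all genes, 3464 passed with all clones, 4750 without clone H and 1661 to 2145 when another clone was left out. Fewer calls in those smaller fits are thus not particular to the members.

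**Figure D1:**
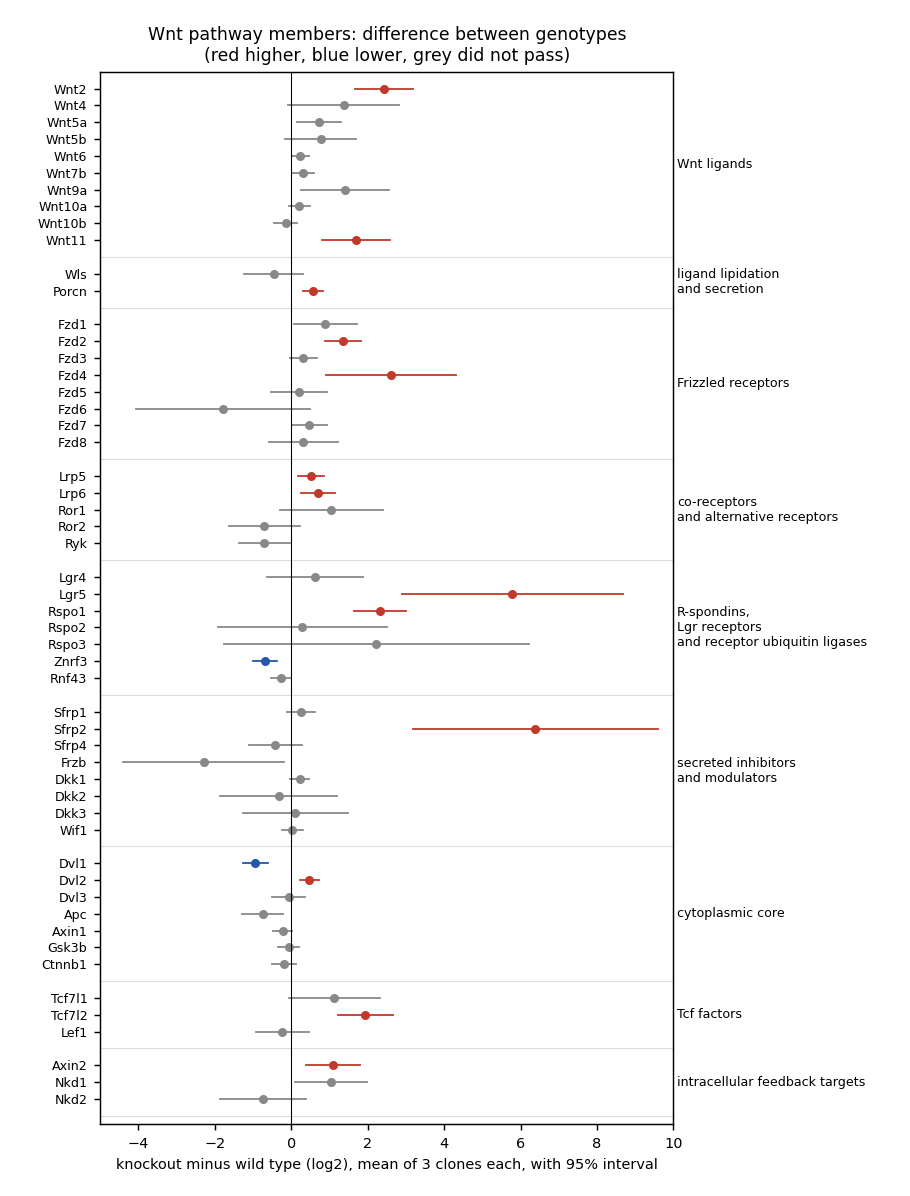
Log2 difference, knockout minus wild type, of the 53 Wnt pathway genes, grouped by role; points are differences of means of 3 clones each and bars are 95% intervals. The 13 members in red lie to the right of 0 and the 2 in blue (Znrf3, Dvl1) to the left, and the widest bars, such as those of Rspo3 and Sfrp2, belong to genes whose knockout clones disagree.

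Promoters are shown for Sfrp2, which had the largest called difference, for Axin2, the standard feedback target, and for Wnt11 and Dvl2, which had a window that held a motif. Wnt11 has a second window, at chr7:98838595-98838844, which held neither motif and is not shown. Each printed window is the 250 bases before the annotated start, sense strand, from RefSeq (GRCm38.p6), at chr3:83766071-83766320, chr11:108920099-108920348, chr7:98834862-98835111 and chr11:70000342-70000591, all on the plus strand. Capitals mark the Tcf/Lef core CTTTGA (printed as its reverse complement where it lies on the minus strand) or the AP-1 core TGANTCA, both searched on either strand; the motifs do not contain each other.
Sfrp2: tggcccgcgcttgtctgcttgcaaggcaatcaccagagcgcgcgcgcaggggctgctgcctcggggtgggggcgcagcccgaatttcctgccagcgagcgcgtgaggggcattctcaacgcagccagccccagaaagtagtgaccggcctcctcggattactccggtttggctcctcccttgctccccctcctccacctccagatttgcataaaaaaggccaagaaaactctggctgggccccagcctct
Axin2: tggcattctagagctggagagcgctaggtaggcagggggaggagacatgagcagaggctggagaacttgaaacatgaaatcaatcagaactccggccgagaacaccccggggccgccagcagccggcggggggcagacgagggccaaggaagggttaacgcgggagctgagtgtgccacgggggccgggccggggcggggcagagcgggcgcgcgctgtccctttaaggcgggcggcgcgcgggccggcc
Wnt11: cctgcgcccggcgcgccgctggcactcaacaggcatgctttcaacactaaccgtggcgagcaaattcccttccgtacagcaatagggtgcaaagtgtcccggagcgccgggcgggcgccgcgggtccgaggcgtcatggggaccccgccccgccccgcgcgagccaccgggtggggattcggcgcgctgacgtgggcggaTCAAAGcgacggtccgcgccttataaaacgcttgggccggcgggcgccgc
Dvl2: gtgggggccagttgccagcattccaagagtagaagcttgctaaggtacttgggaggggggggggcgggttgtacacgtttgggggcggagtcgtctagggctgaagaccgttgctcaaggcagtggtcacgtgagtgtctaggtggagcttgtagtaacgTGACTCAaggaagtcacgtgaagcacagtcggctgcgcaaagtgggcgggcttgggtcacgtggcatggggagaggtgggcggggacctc
The Wnt11 match lies 50 bases before the start on the minus strand, and the Dvl2 match 90 bases before it on the plus strand. Promoter windows were found for 34 members, 43 windows in all, of which 8 (18.6%) held CTTTGA and 3 (6.98%) held TGANTCA. Among all 32851 windows the shares were 13.8% and 6.75%. Of 11 windows of 9 genes that passed, 1 held each motif. A match describes letters in a window and does not show binding.

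Among the ligands, 2 of 10 rose in knockout (Wnt2 and Wnt11), a share of 20.0%, where 19.0% of all genes passed and 9.04% were higher. In 9 of 10 the difference lay above 0, as in 56.4% of all genes, with a median of 0.75. Wnt2, a ligand of the beta-catenin branch in lung and vascular mesenchyme, read 5.22, 5.63 and 6.53 in knockout and 3.27, 3.40 and 3.43 in wild type. All knockout clones lay well above all wild type clones, which sat at the lower end of the scale. The difference was 2.43 (SE 0.32, adjusted p = 0.00548), and since the wild type mean of 3.37 is under the 25th percentile, its size is not exact. Wnt11, known mainly for signals that bypass beta-catenin, read 7.12, 6.48 and 7.98 in knockout and 5.71, 5.32 and 5.47 in wild type. The groups did not overlap, and H was the lowest knockout clone. Wnt11 was higher by 1.70 (SE 0.36, adjusted p = 0.024), and this call was lost when wild type E (adjusted p = 0.0708), F (0.0812) or I (0.0732) or knockout E (0.0649) was omitted.

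Wnt4, a ligand of kidney and gonad development, read 6.83, 8.44 and 5.92 in knockout and 5.74, 6.0 and 5.34 in wild type. Clone H was highest and clone J lay within the wild type range. Its difference of 1.37 did not pass (95% interval -0.08 to 2.82, adjusted p = 0.172). Wnt9a, a ligand of joint and skeletal tissue, read 5.15, 7.18 and 6.02 in knockout and 4.83, 4.68 and 4.61 in wild type. The groups did not overlap, yet the spread in knockout was wide. Its difference of 1.41 did not pass (0.27 to 2.55, adjusted p = 0.0892) but did without knockout clone E (adjusted p = 0.028) or H (0.0482). Wnt5a, the main ligand of the Ror receptors, read 8.53, 7.89 and 8.39 in knockout against 7.23, 7.92 and 7.48 in wild type. The groups overlapped only in that knockout clone H lay just under wild type clone F. The difference of 0.73 missed the threshold (adjusted p = 0.0802). It passed without knockout clone H (0.91, adjusted p = 0.0218) but not without wild type clone F (0.91, adjusted p = 0.0634). Wnt5b, its close relative, differed by 0.77 (-0.16 to 1.70). Wnt6, Wnt7b, Wnt10a and Wnt10b differed by 0.24, 0.31, 0.22 and -0.14, and none of these passed.

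Porcn, the X-linked enzyme that attaches the lipid, was raised by a small and even amount. It read 6.54, 6.52 and 6.61 in knockout and 5.89, 6.14 and 5.92 in wild type. The knockout clones differed from each other by less than the wild type clones did, and clone H, with its high Xist, read like E and J. Porcn was higher by 0.57 (SE 0.11, adjusted p = 0.0155), and this call was lost when wild type E (adjusted p = 0.0595) or I (0.054) or knockout J (0.0615) was omitted. Wls, the carrier of lipid-bearing ligands, read 9.61, 10.74 and 9.75 in knockout and 10.46, 10.22 and 10.79 in wild type. On this probe set clones E and J were low and clone H lay within the wild type range. Its difference was -0.46 (-1.23 to 0.31, adjusted p = 0.375) over all clones and -0.81 without clone H (adjusted p = 0.0206). On the other bright probe sets of Wls, clone H lay just under every wild type clone. Those differed by -0.75 and -0.86 and did not pass (adjusted p = 0.102 and 0.0702 over all probe sets).

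Of the 8 Frizzled receptors, which bind the ligands, Fzd2 and Fzd4 rose (25%, where 19.0% of all genes passed and 9.04% were higher). In 7 the difference lay above 0 (56.4% of all genes), with a median of 0.40. Fzd2, which takes part in both branches of the pathway, read 11.72, 11.23 and 11.58 in knockout and 10.06, 9.90 and 10.50 in wild type. All knockout clones lay above all wild type clones. The difference was 1.35, or 2.56-fold (SE 0.20, adjusted p = 0.0077), and its other 2 probe sets passed with 1.35 and 2.11. Fzd4, the receptor for the ligand norrin as well as for Wnts, read 9.32, 7.05 and 9.99 in knockout and 6.04, 6.31 and 6.14 in wild type. Clone H was above wild type by far less than E and J were. Fzd4 was higher by 2.62 (SE 0.71, adjusted p = 0.0473). The call was lost whichever clone was omitted, knockout clone H excepted (adjusted p from 0.115 to 0.143) and with a trended, robust prior (0.0618). Without clone H the difference was 3.49 (adjusted p = 2.70e-04).

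Fzd6, a receptor of planar polarity, read 4.86, 8.77 and 5.71 in knockout and 8.11, 8.05 and 8.53 in wild type. Clones E and J were far below wild type and clone H above it. The difference of -1.78 did not pass (-4.06 to 0.49, adjusted p = 0.247), and without clone H it was -2.95 (adjusted p = 9.46e-04). A second probe set was likewise low in E and J, with 3.94, 7.25 and 4.04 against 6.78, 6.68 and 7.3, but its clone H lay inside the wild type range. The remaining, dim probe set read 3.79, 3.94 and 3.7 against 3.4, 3.66 and 3.61 and differed by 0.26. Fzd1 and Fzd7, which act in the beta-catenin branch, differed by 0.89 (0.06 to 1.72, adjusted p = 0.127) and 0.47 (0.02 to 0.93, adjusted p = 0.139). Fzd3, Fzd5 and Fzd8 differed by 0.32, 0.20 and 0.32 and did not pass.

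Lrp5 and Lrp6, the co-receptors that Frizzled needs to stabilise beta-catenin, both rose, while the Ror and Ryk receptors did not pass. Lrp5 read 7.85, 7.80 and 7.86 in knockout and 7.46, 7.44 and 7.03 in wild type. The knockout clones were nearly equal and lay above every wild type clone. Lrp5 was higher by 0.53 (SE 0.14, adjusted p = 0.0458). This call was lost without each of the 6 clones in turn (adjusted p from 0.0522 without knockout clone H to 0.132 without knockout clone J), after centring the arrays on their medians (0.0651) and with a trended, robust prior (0.0589). Lrp6 read 9.29, 9.16 and 9.60 in knockout and 8.32, 8.87 and 8.76 in wild type, again with no overlap. It was higher by 0.71 (SE 0.19, adjusted p = 0.045), and this call was lost whichever clone was omitted, knockout clone H excepted (adjusted p from 0.0654 to 0.133) and after median centring (0.0566).

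Ror1, a receptor for Wnt5a, read 8.19, 7.60 and 8.04 in knockout and 7.65, 7.47 and 5.54 in wild type. Wild type clone I was low, and clone H fell between wild type clones E and F. The difference of 1.05 did not pass (-0.29 to 2.39, adjusted p = 0.246). Ror2, the other Ror receptor, differed by -0.71 (-1.63 to 0.22) and Ryk, an atypical kinase receptor for Wnts, by -0.70 (-1.38 to -0.03). In both, clone H lay within the wild type range. Without clone H, the difference was -1.14 for Ror2 (adjusted p = 0.00908) and -1.03 for Ryk (adjusted p = 0.00277).

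Among the 7 R-spondins, Lgr receptors and receptor ubiquitin ligases, Lgr5 and Rspo1 were higher in knockout and Znrf3 was lower. The other 4 did not pass, so the share called was 42.9%, against 19.0% of all genes. Lgr5, a receptor for R-spondins and a marker of several stem cell pools, read 10.04, 6.31 and 11.39 in knockout and 3.38, 3.36 and 3.67 in wild type. Every knockout clone was above wild type, with H well below E and J, and the wild type values were at the lower end of the scale. The difference was 5.78 (SE 1.20, 95% interval 2.89 to 8.67, adjusted p = 0.0215). It was lost whichever clone was omitted, knockout clone H excepted (adjusted p from 0.052 to 0.0815), and was 7.25 without clone H (adjusted p = 1.42e-04). A second, dim probe set read 4.07, 3.58 and 4.59 against 3.55, 3.65 and 3.59 and did not pass (0.48), and the mean of both probe sets differed by 3.13. Rspo1, a ligand of the Lgr receptors, read 5.12, 5.07 and 6.11 in knockout and 3.17, 3.16 and 3.01 in wild type. Clone H matched clone E here. Rspo1 was higher by 2.32 (SE 0.28, adjusted p = 0.00439), from a wild type mean of 3.11 that is under the 25th percentile, so its size is not exact.

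Rspo3, another R-spondin, read 9.37, 3.34 and 9.52 in knockout and 4.14, 5.42 and 5.98 in wild type. Clones E and J were far above every wild type clone and clone H was below them all. The difference of 2.23 did not pass (-1.77 to 6.22, adjusted p = 0.408), and without clone H it was 4.26 (adjusted p = 0.00199). Rspo2 was also lowest in clone H among the knockout clones (7.93, 4.42 and 7.19), over a wild type range of 5.71 to 7.15, and differed by 0.29. Lgr4, the broadly expressed relative of Lgr5, differed by 0.62 (-0.64 to 1.88) over all clones and by 1.18 without clone H (adjusted p = 0.0364). Znrf3, the ubiquitin ligase that clears Frizzled receptors from the membrane and that R-spondins act on, read 5.74, 5.56 and 5.45 in knockout and 6.26, 6.10 and 6.43 in wild type. The groups did not overlap and clone H lay between E and J. Znrf3 fell by 0.68 (SE 0.13, adjusted p = 0.0174), and this call was lost when wild type E (adjusted p = 0.0634) or I (0.0529) or knockout J (0.0647) was omitted. Averaging its probe sets gave -0.43. Rnf43, the related ligase, differed by -0.26 at the lower end of the scale and did not pass.

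Of the 8 secreted inhibitors and modulators, Sfrp2 rose (12.5%, where 19.0% of all genes passed and 9.04% were higher), and the median difference was 0.07. Sfrp2, a secreted protein with a Frizzled-like domain, read 12.96, 8.84 and 12.99 in knockout and 5.19, 6.93 and 3.53 in wild type. Clones E and J were nearly equal, clone H lay in between, and wild type clones differed widely among themselves. The difference was 6.38 (SE 1.33, 95% interval 3.17 to 9.59, adjusted p = 0.0219). It was lost when wild type E (adjusted p = 0.0814) or I (0.0674) or knockout E (0.0675) or J (0.0755) was omitted, and was 7.76 without clone H (adjusted p = 0.00177). Frzb, a relative of Sfrp2 studied in cartilage, read 6.80, 4.12 and 5.17 in knockout and 8.15, 8.68 and 6.13 in wild type. It was low in H and J, while knockout clone E lay above wild type clone I. The difference of -2.29 did not pass (-4.39 to -0.20, adjusted p = 0.122). Sfrp1, which read 11.0 or above in every clone, differed by 0.25, and Sfrp4 by -0.42. Among the Dickkopf genes, whose products Dkk1 and Dkk2 bind Lrp5 and Lrp6, Dkk1 differed by 0.22, Dkk2 by -0.33 (-1.86 to 1.21) and Dkk3, a divergent member, by 0.11 (-1.25 to 1.48). Wif1, which binds ligands, lay under the 25th percentile in both genotypes (2.33 to 2.60).

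Some marker genes were lowest in clone H among knockout clones, as were Lgr5, Fzd4, Rspo3 and Sfrp2, though by differing amounts. Lum, a matrix proteoglycan on the fibroblast list, read 11.14, 10.32 and 11.94 in knockout and 5.75, 8.58 and 4.63 in wild type, where its order (clone F highest, clone I lowest) was that of Sfrp2. Tek, an endothelial receptor, read 8.36, 4.68 and 8.91 in knockout against 2.54 to 3.31 in wild type, with clone H again the lowest knockout clone. Kdr, another endothelial receptor, went the other way and was highest in H, at 4.85, 6.99 and 4.81 in knockout against 5.49, 6.7 and 5.38. The summed endothelial list came to between 31.6 and 34.3 in knockout clones, against 27.0 to 29.7 in wild type clones, but without Tek the other 7 markers overlapped, at 24.5, 26.9 and 25.4 against 24.9, 26.4 and 24.5. Pecam1 and Vwf lay near the lower end in every clone (2.72 to 3.65). The 6 cartilage and bone markers measured of 8 summed to 36.6, 28.5 and 34.8 in knockout and 27.6, 28.4 and 28.5 in wild type. Within that list Col2a1, a cartilage collagen, read 10.56, 5.86 and 9.15 against 5.06 to 5.54. Sox9, a cartilage regulator, read 10.08, 6.29 and 9.03 against 6.79 to 7.19. In every clone Acan lay between 3.74 and 4.14, Sp7 between 4.01 and 4.59, Ibsp between 2.9 and 3.25 and Alpl between 4.54 and 5.08. The sum thus does not show a shift of the whole list, whose median difference was 0.21. The part of such cells or programmes in the Wnt pathway values was not tested.

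**Figure D2:**
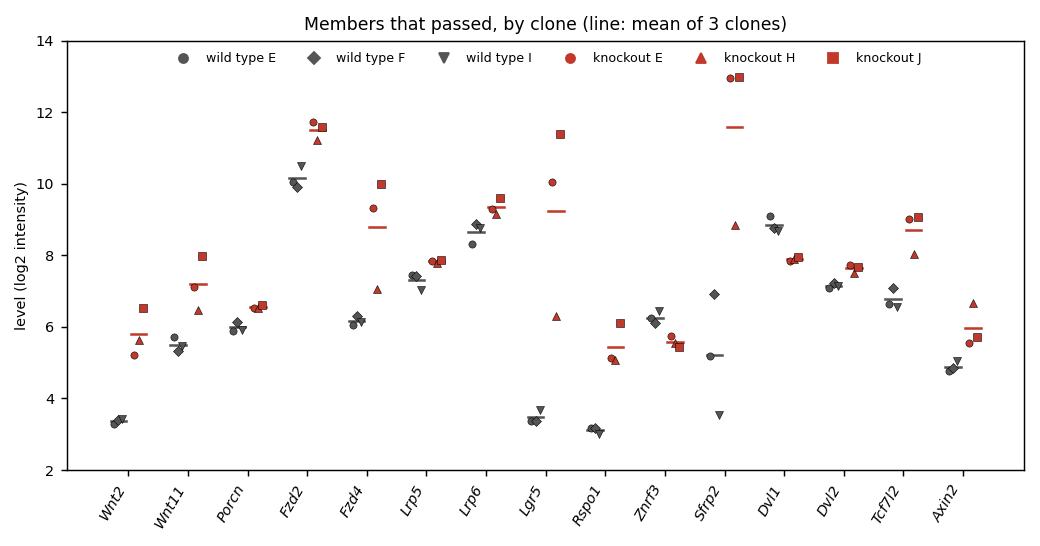
Log2 intensity by clone of the 15 Wnt pathway genes that passed (grey, wild type; red, knockout; short lines, means of 3 clones; heights of different genes cannot be compared). In every gene the genotypes are separate, and the knockout triangle (clone H) drops towards wild type in Fzd4 (7.05), Lgr5 (6.31) and Sfrp2 (8.84).

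In the cytoplasmic core, the 2 Dishevelled genes that passed went in opposite directions, and Apc, Axin1 and Gsk3b of the destruction complex did not pass. The calls came to 28.6% of its 7 genes, against 19.0% of all genes. Dvl1, which relays the signal from Frizzled, read 7.84, 7.91 and 7.96 in knockout and 9.10, 8.76 and 8.67 in wild type. All knockout clones were lower and nearly equal. Dvl1 fell by 0.94 (SE 0.14, adjusted p = 0.00724), and its second probe set fell by 0.69 (adjusted p = 0.00732 over all probe sets). Dvl2, its relative, read 7.74, 7.50 and 7.67 in knockout and 7.10, 7.23 and 7.14 in wild type. The groups were close but separate. Dvl2 was higher by 0.48 (SE 0.11, adjusted p = 0.026), and this call was lost whichever clone was omitted, knockout clone H excepted (adjusted p from 0.0596 to 0.0905). Dvl3 differed by -0.07 (-0.51 to 0.37). Ctnnb1, which encodes beta-catenin, read 11.85, 11.86 and 11.76 in knockout and 11.80, 12.03 and 12.20 in wild type. The groups overlapped, and all clones lay near the top of the scale. Its difference was -0.19 (SE 0.13, 95% interval -0.50 to 0.12, adjusted p = 0.362), which concerns transcript and not protein. Apc, a scaffold of the destruction complex, differed by -0.74 (-1.28 to -0.21, adjusted p = 0.0644) with no overlap, Axin1, its other scaffold, by -0.23 (-0.48 to 0.03) and Gsk3b, its kinase, by -0.07 (-0.35 to 0.21).

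Among the Tcf and Lef factors, the DNA-binding partners of beta-catenin, Tcf7l2 rose by all 4 of its probe sets. It was the 1 call among 3 measured (33.3%, where 19.0% of all genes passed and 9.04% were higher). Tcf7l2 read 9.0, 8.05 and 9.08 in knockout and 6.65, 7.08 and 6.57 in wild type. Clone H lay between the other knockout clones and wild type. The difference was 1.94, or 3.84-fold (SE 0.30, adjusted p = 0.00882), and 1.73 to 1.94 over its 4 probe sets, all of which passed. Tcf7l1, which acts mostly as a repressor, read 10.38, 8.35 and 9.82 in knockout and 8.30, 8.56 and 8.30 in wild type. Clones E and J were raised and clone H lay inside the wild type range. The difference of 1.13 did not pass (-0.05 to 2.31, adjusted p = 0.166) and was 1.72 without clone H (adjusted p = 0.00176). Lef1, an activator in many developing tissues, read 3.92, 3.11 and 3.92 in knockout and 3.61, 3.72 and 4.33 in wild type. These values are at the lower end of the scale and overlap, with a difference of -0.24 (SE 0.29, -0.93 to 0.46, adjusted p = 0.627).

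The intracellular feedback genes, which are switched on by the pathway and restrain it, did not move together. Of the 3 genes, 1 passed (33.3%, where 19.0% of all genes passed and 9.04% were higher). Axin2, a scaffold of the destruction complex widely read as a reporter of beta-catenin activity, read 5.56, 6.67 and 5.71 in knockout and 4.77, 4.85 and 5.05 in wild type. The groups were separate and clone H was the highest. Axin2 was higher by 1.09 (SE 0.29, adjusted p = 0.0473). The call was lost when wild type E (adjusted p = 0.147), F (0.127) or I (0.0969) or knockout J (0.0837) was omitted, and with median centring (0.0524), repeated quantile normalization (0.0511) or the mean of its 2 probe sets (0.75, 0.0594). Nkd1, an inhibitor of Dishevelled, read 5.22, 6.48 and 6.77 in knockout and 4.97, 5.06 and 5.33 in wild type. On this probe set clone E lay within the wild type range and H and J above it. Its difference of 1.04 did not pass (0.09 to 1.99, adjusted p = 0.122), except without knockout clone E (1.51, adjusted p = 0.00983). On each other probe set of Nkd1 all knockout clones, E included, lay above all wild type clones. Those differed by 2.18, 0.54 and 0.48 and did not pass (adjusted p from 0.0706 to 0.195 over all probe sets). Nkd2, its relative, read 5.28, 6.33 and 4.57 against 6.39, 5.59 and 6.41, with clone H inside the wild type range. It differed by -0.74 (-1.85 to 0.38) over all clones and by -1.21 without clone H (adjusted p = 0.0354).

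Other probe sets of the same genes were read as a check, with p-values adjusted over all probe sets that carry 1 symbol. More than 1 probe set was present for 40 members, and for 9 of the 15 that passed. In 5 of these 9 another probe set passed in the same direction (Fzd2, Fzd4, Dvl1, Dvl2, Tcf7l2), and 0 passed the other way. The second probe sets of Lrp6 (0.75, adjusted p = 0.0523), Axin2 (0.40, 0.127), Znrf3 (-0.19, 0.282) and Lgr5 (0.48, 0.236) did not pass. In 3 members whose brightest probe set did not pass, another did. Wnt5a had a probe set that read 7.48, 7.26 and 7.56 in knockout and 5.77, 6.16 and 5.82 in wild type (1.52, adjusted p = 0.00268), and a further one that passed with 0.98 (0.0346). Apc had a probe set that differed by -1.02 (adjusted p = 0.0113), and Sfrp1 a probe set higher by 0.82 (adjusted p = 0.0337) where its 4 others spanned -0.05 to 0.68. Probe sets of a gene can read different transcript ends, which was not tested.

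**Figure D3:**
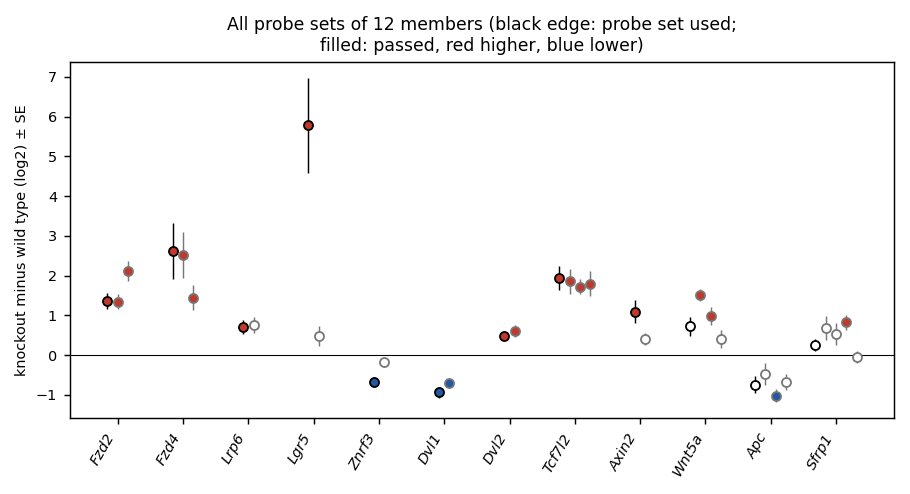
Log2 difference, knockout minus wild type, with SE bars, of every probe set of 12 Wnt pathway genes (black edge, the probe set that represents the gene; filled, passed; red higher, blue lower; 3 clones a genotype). Probe sets of Tcf7l2 lie together at 1.73 to 1.94, while the 2 of Lgr5 lie far apart at 5.78 and 0.48.

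How each knockout clone lay against the others was counted gene by gene. A clone was counted as apart in a gene where it lay at least 1 from the mean of the other 2 knockout clones and those lay within 1 of each other. Clone H was apart in 16 members (30.2%, against 5.80% of all genes), clone E in 2 (Wnt5b and Nkd1, 3.8%, against 1.0%) and clone J in 4 (Wnt2, Wnt11, Rspo1 and Dkk3, 7.5%, against 0.759%). In 4 of the 16, clone H lay inside the wild type range. The genes apart in H were the ligands Wnt4, Wnt9a and Wnt11, the carrier Wls, the receptors Fzd4, Fzd6, Fzd8, Ror2 and Lgr4, the secreted Rspo2, Rspo3, Sfrp2 and Dkk2, and Tcf7l1, Axin2 and Nkd2. Fzd4, Lgr5, Rspo3, Sfrp2 and Tcf7l1 were at least 1 higher in both E and J than in H and in every wild type clone, an order shared by 168 of all genes (0.92%). Fzd6 was lower in that way, as were 222 of all genes (1.22%). Wnt4, Wnt9a, Axin2 and Dkk2, like Fzd6, were higher in clone H than in any other clone. Wls, Ror2 and Nkd2 were highest in H among the knockout clones. These are values of single clones and carry no test.

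**Figure D4:**
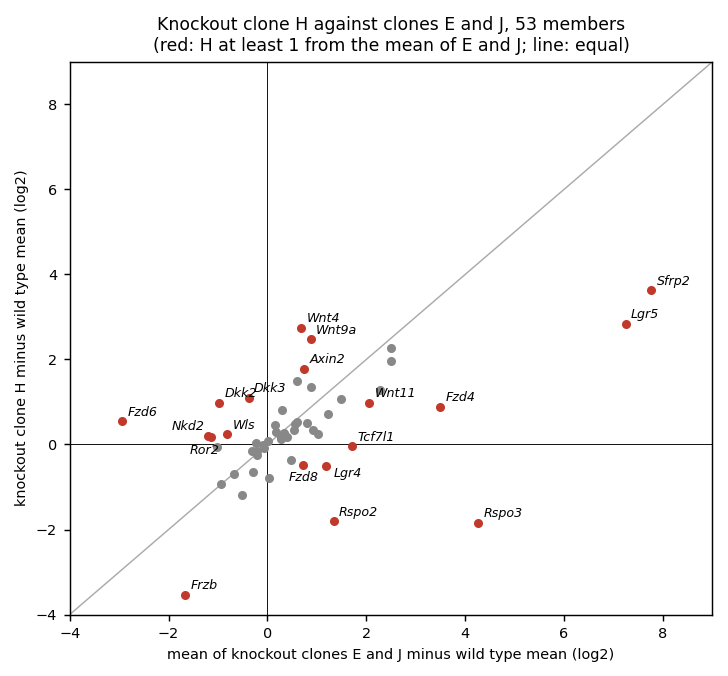
Log2 difference from the wild type mean of clone H (vertical) against that of the mean of clones E and J (horizontal) for the 53 Wnt pathway genes; red, the 19 genes where H lies at least 1 from that mean; the line marks equality. Clone H lies below the line by at least 1 in 10 genes, among them Rspo3, Sfrp2 and Lgr5, and above it in 9, among them Fzd6 and Wnt4.

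Around these genes, 59 further pathway genes of 60 listed were measured, and knockout raised 9 of them and lowered 5 (23.7%, against 19.0% of all genes) with a median difference of 0.07. Without clone H they were 10 and 6 of the 59, where 12.7% of all genes were higher and 13.4% lower. Gpc3, an X-linked glypican that binds Wnts and other ligands at the cell surface, read 10.49, 7.19 and 10.37 in knockout and 4.57, 4.29 and 4.57 in wild type. As in Lgr5, clone H was the lowest knockout clone and still above wild type. Gpc3 was higher by 4.87 (SE 0.86, adjusted p = 0.0128), and this call was lost when wild type E (adjusted p = 0.0545) or F (0.0506) was omitted. Prickle1, of the planar polarity branch, read 8.79, 9.18 and 8.88 against 7.73, 7.82 and 7.79 and was higher by 1.17 (SE 0.13, adjusted p = 0.00332), or by 0.50 with its probe sets averaged. Pygo1, a nuclear partner of beta-catenin, was higher by 1.01 (SE 0.13, adjusted p = 0.00478), from values of 2.63 to 3.82 at the lower end of the scale. Casein kinases, which phosphorylate several pathway proteins, were split. Csnk1d was higher by 0.72 (SE 0.14, adjusted p = 0.0191) and Csnk1e fell by 0.83 (SE 0.15, adjusted p = 0.0146). Csnk1d was lost when wild type E (adjusted p = 0.0728) or F (0.0673) or knockout E (0.0637) or J (0.0709) was omitted, and Csnk1e when wild type E (adjusted p = 0.0572) or knockout E (0.0506) or J (0.0536) was omitted. Fbxw11, a ubiquitin ligase subunit that recognises beta-catenin, fell by 0.70 (SE 0.14, adjusted p = 0.0211). It was lost when wild type E (adjusted p = 0.0649) or I (0.0612) or knockout E (0.0645) or J (0.0724) was omitted, and with probe sets averaged (-0.36, 0.139).

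Genes commonly listed as beta-catenin targets went both ways. Of 29 listed, 27 were measured, and 4 were higher and 4 lower in knockout (29.6%, against 19.0% of all genes), with a median difference of 0.03. Without clone H there were 7 of each among the 27, where 12.7% of all genes were higher and 13.4% lower. Twist1, a mesenchymal transcription factor, read 9.28, 9.60 and 9.83 in knockout and 8.27, 8.37 and 8.53 in wild type. It was higher in every knockout clone, by 1.18 (SE 0.16, adjusted p = 0.00633). Notum, which removes the lipid from Wnts and stands in both lists, was higher by 0.55 (SE 0.12, adjusted p = 0.0282), and this call was lost when wild type E (adjusted p = 0.0974) or I (0.0879) or knockout E (0.0865) or J (0.0979) was omitted. Ccnd1, the D-type cyclin usually cited as a target, read 9.29, 8.34 and 9.59 in knockout and 11.04, 10.78 and 10.50 in wild type. It fell in every knockout clone, by 1.70 (SE 0.33, adjusted p = 0.0177), and was lost when wild type E (adjusted p = 0.0731) or F (0.0605) was omitted. Ccnd2, a second D-type cyclin, fell by 1.26 (SE 0.18, adjusted p = 0.00703) and Fosl1, an AP-1 subunit, by 1.61 (SE 0.24, adjusted p = 0.0076). Myc, a growth regulator, read 7.92, 7.79 and 8.02 against 8.71, 8.47 and 9.17. It fell by 0.87 (SE 0.19, adjusted p = 0.025), and this call was lost when wild type E (adjusted p = 0.0771) or knockout E (0.0705) or J (0.0669) was omitted. Axin2 and Notum were higher in the knockout clones in which Ccnd1, Ccnd2, Myc and Fosl1 were lower.

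**Figure D5:**
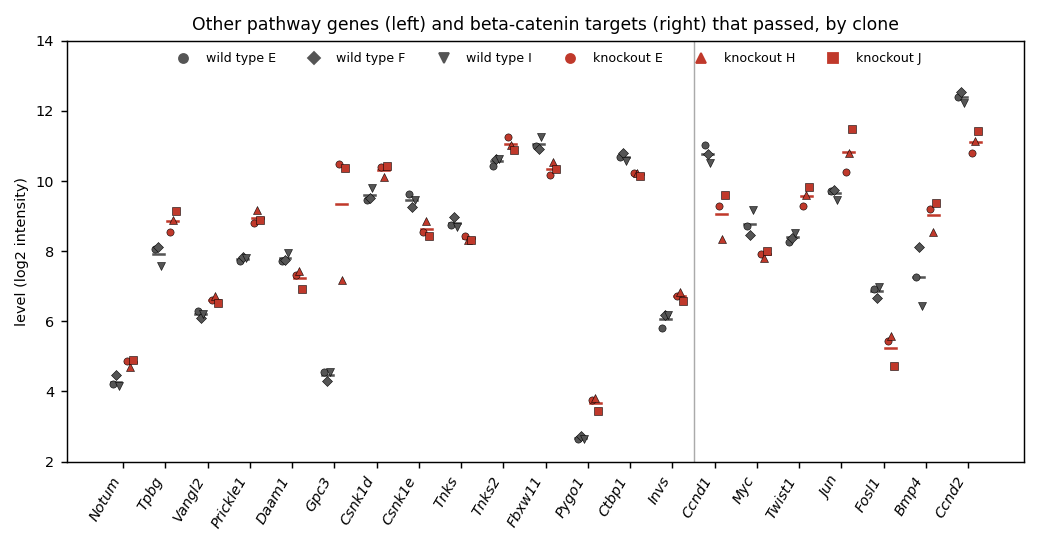
Log2 intensity by clone of the further pathway genes (left of the line) and listed beta-catenin targets (right) that passed (grey, wild type; red, knockout; short lines, means of 3 clones; heights of different genes cannot be compared). Gpc3 has the widest gap, at 7.19 to 10.49 in knockout against 4.29 to 4.57 in wild type, and Ccnd1, Myc, Fosl1 and Ccnd2 lie lower in all knockout clones.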

How the data were processed

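RNA from 6 clones was labelled with biotin by a one-cycle 3' protocol, per the labels' protocols, and hybridised to 1 Affymetrix array each. The deposited values are log2 intensities that the authors made with RMA, named in the submitters' processing notes without version or settings. Wild type clone E is written with 9 decimals and the others with 3, and the sources used here do not say whether it was processed apart. Of 45101 probe sets, 64 controls, 932 with several symbols and 9160 with none were left out; 34741 of the 34945 others matched RefSeq (GRCm38.p6) by gene ID. Each of 18193 genes was represented by its brightest probe set.

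Genotypes were compared with limma 3.58.1 (lmFit, eBayes; R 4.3.3), 4 residual degrees of freedom, Benjamini-Hochberg adjustment over all genes and a threshold of 0.05; the steps were tested on simulated data. Alternatives were 8 settings of prior, scaling, filter, probe sets and weights, and leaving out each clone. Members and lists, the beta-catenin targets included, were chosen with earlier results of these data known. Full values are given for members that passed, those differing by 1 or more, and Ctnnb1, Axin2, Lef1 and Tcf7l2, and for the 6 smallest p-values of each further list; other genes of those lists that passed appear in a plot alone. The number of clones limits the precision.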

Additional observations from a re-analysis of the deposited data

How the results depend on the processing

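Over the 8 settings other than leaving out a clone, no member or named gene changed sign together with a call. The count of 2 lower members was 6 with array weights, and the 5 lower further pathway genes were 3 with repeated quantile normalization and 3 with a trended, robust prior; the other counts stayed within 1.5 times of their values under these settings. Leaving out 1 clone at a time gave 4 to 17 higher and 1 to 7 lower members, 2 to 10 higher and 0 to 6 lower further pathway genes, and 1 to 7 higher and 2 to 7 lower beta-catenin targets. The 0 came from limma without knockout clone J or wild type clone E, where 7 of these genes were lower at an unadjusted p under 0.05 in each. Among 65 single genes, 12, 1 and 14 calls were lost without knockout clone E, H or J and 17, 10 and 12 without wild type clone E, F or I; 2 were gained without knockout clone E and 10 without H. The highest counts of members came without clone H, which array weighting gave a weight of 0.385 against 1.07 to 1.56 for the other clones. Fits without a clone have fewer samples. Genes at the lower end of the scale (Wnt2, Lgr5, Rspo1 in wild type) have differences of uncertain size. No paired analysis was possible because the groups share only 1 clone letter (E).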

Other observations

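Among the listed beta-catenin targets, 6 passed in limma without knockout clone H and not with all 6 clones. They are named after their values were seen. Calls over all genes also rose without clone H, from 3464 (19.0%) to 4750 (26.1%). Without clone H the differences were 2.52 for Sox9, a cartilage regulator (adjusted p = 0.0024), 2.65 for Id2, an inhibitor of DNA-binding factors (0.00649), and 1.67 for Ccn5, a secreted matricellular protein (0.0216). They were -1.91 for Cd44, the hyaluronan receptor (adjusted p = 3.50e-04), -1.67 for Plaur, the urokinase receptor (0.00368), and -0.58 for Vegfa, an angiogenic factor (0.045). With all clones the same genes differed by 1.43, 1.8, 2.79, -1.41, -1.05 and -0.36. Ccn5 was thus further from 0 with clone H and the other 5 nearer to it.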
